A study of Rattus norvegicus with 24 samples.

Results

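The genes described here encode the cytokine TWEAK, its receptor, NF-kB transcription factor subunits, the inhibitors IkB-alpha and IkB-epsilon, and the atypical IkB protein BCL3. They were chosen by gene symbol: 9 symbols were listed (Tnfrsf12a, Tnfsf12, Nfkb1, Nfkb2, Rela, Relb, Nfkbia, Nfkbie and Bcl3), and 8 of them had a row among the 13458 symbols of the normalized expression table, each of the 8 in a single row. Relb was not analysed here. The samples were tibialis anterior (TA, the ankle dorsiflexor) muscles from both hindlimbs of 12 male Fischer 344 rats aged 23 ± 1 months, sequenced as bulk mRNA. In the animals given tetrodotoxin (TTX), a pump delivered this sodium channel blocker to the left common peroneal nerve, so that the left TA lost its nerve activity while the nerve stayed in place. Left limbs were taken after 6 to 7 days of TTX (atrophy, n = 3), after a further 9 days without the block (recovery, n = 3), or after a second TTX period of 5 to 6 days (repeated atrophy, n = 3). The untreated right limbs of the same 9 animals formed the control group (n = 9), and the left and right limbs of 3 sham-operated animals that received no TTX, 1 taken at each of the 3 times, were a further comparison. All groups were thus old males of 1 strain, each limb was 1 library, and the control limbs belonged to animals whose left limb was silenced at sampling or had been before.

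TWEAK is a cytokine of the tumour necrosis factor (TNF) family that acts through Fn14, the small receptor encoded by Tnfrsf12a. Fn14 is scarce in innervated adult muscle, is known to be induced when muscle loses its nerve supply, and recruits TRAF adaptors that activate NF-kB. NF-kB dimers are held in the cytoplasm by IkB inhibitors. In the canonical arm the IKK complex has the IkB proteins degraded and frees dimers of RELA and p50 (from Nfkb1), whereas in the noncanonical arm the kinase NIK (Map3k14) drives the processing of p100 (from Nfkb2) to p52, the partner of RELB. BCL3 is an atypical IkB protein that binds p50 and p52 in the nucleus. RNA levels of these genes do not measure the activity of the proteins.

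The total depth of the libraries, inferred from the spacing of their low values, was, in units of 1000000 reads, 18.9 to 30.9 with a median of 26.1, and 1 read was worth at most 0.0530 CPM (counts per 1000000 reads). The silencing was checked with 7 genes known to rise in denervated muscle (among them Chrna1, Chrng and Myog), whose summed level was 59.8 to 428 CPM in the control limbs, 148 to 752 CPM in recovery and 2189 to 4227 CPM in repeated atrophy. In atrophy the sum was 2585 and 2407 CPM in animals 1 and 3 but 439 CPM in animal 2, near the highest control. The left limb of atrophy animal 2 therefore stood apart from its group, and the main results that rest on the atrophy group are given below with and without it. In recovery the left limb of animal 3 also stood apart, at 752 CPM against 245 and 148 CPM in animals 1 and 2. In bulk tissue, fewer cells of a type and less RNA per cell cannot be told apart.

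The promoters of the 2 members that passed the test in both atrophy groups are shown first, because the results turn on these genes. The sequences are those of RefSeq (GRCr8 build), run from 250 bases before to 50 bases after the start of the gene, and were held by the table used here for 7 of the 9 members. Capitals mark a match to the kappaB consensus, the 10-base site that NF-kB dimers bind, searched by its name on both strands.
Nfkb2 promoter, GRCr8, chr1:255108124-255108423, plus strand: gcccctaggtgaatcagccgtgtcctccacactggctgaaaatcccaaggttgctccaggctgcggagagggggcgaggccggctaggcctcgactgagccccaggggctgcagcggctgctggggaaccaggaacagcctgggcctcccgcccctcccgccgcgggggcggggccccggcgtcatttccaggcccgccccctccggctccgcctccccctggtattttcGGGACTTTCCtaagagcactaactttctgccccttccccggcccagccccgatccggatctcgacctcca
Tnfrsf12a promoter, GRCr8, chr10:13213599-13213898, minus strand: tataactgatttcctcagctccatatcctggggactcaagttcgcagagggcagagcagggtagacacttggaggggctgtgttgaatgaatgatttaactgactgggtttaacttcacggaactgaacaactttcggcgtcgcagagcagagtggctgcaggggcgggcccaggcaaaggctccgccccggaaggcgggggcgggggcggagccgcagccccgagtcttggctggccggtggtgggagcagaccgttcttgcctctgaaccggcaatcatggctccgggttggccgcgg

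The Nfkb2 window held 1 match, beginning 20 bases before the start of the gene, and the Tnfrsf12a window held 0. The other matches are printed because these genes share the site but differ from Nfkb2 in how they behaved below.
Nfkb1: GGGAATTTCC
Nfkbia: GGAAATTCCC
Nfkbie: GGGGGATTCC
Bcl3: GGGAAGTCCC
The Nfkb1 match began at base 4 of the transcribed part, the Nfkbia match 31 bases before the start, the Bcl3 match 38 bases before it and the Nfkbie match 164 bases before it. Those of Nfkbia and Bcl3 lie on the opposite strand and are written along the strand of the gene. The Rela window held 0 matches. In all, 5 of the 7 member promoters held the site, against 1400 of 33469 promoters (4.18%) of the same length. Of the other genes listed here, 6 of 26 NF-kB pathway promoters (23.1%) and 7 of 22 promoters of NF-kB targets (31.8%) held it. A match describes these letters only and is no evidence of binding in this tissue.

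Tnfrsf12a, the Fn14 receptor gene (rn7 chromosome 10, 12707082 to 12709056, minus strand), had the largest fold change of the 8 genes in both atrophy groups, with the 9 right limbs as control. In repeated atrophy this rank was lost without limb 1, when its log2 FC was 1.01 and that of Nfkb2 at least 1.02. Its level was 49.4, 40.9 and 131 CPM in atrophy animals 1, 2 and 3, 6.02, 7.69 and 9.97 CPM in recovery, and 104, 35.9 and 22.3 CPM in repeated atrophy. The 9 control limbs ran from 5.11 to 52.0 CPM with a median of 14.6. The highest control was the right limb of atrophy animal 3, the animal whose left limb was also the highest. That 1 limb made the control group overlap atrophy, and the controls overlapped repeated atrophy as well. Relative to control, log2 fold change (FC) was 2.16 ± 0.54 (SE, 4.48-fold) in atrophy (adjusted p = 0.012) and 1.62 ± 0.54 (3.07-fold) in repeated atrophy (adjusted p = 0.028), so that Tnfrsf12a rose in both. It then fell by 2.90 on the log2 scale in recovery vs. atrophy (adjusted p = 0.011) and rose by 2.36 in repeated atrophy vs. recovery (adjusted p = 0.015), and in neither of these comparisons did the groups overlap.

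The control limbs of Tnfrsf12a differed with the animals they came from. Right limbs had 30.0 ± 19.5 CPM (SD, n = 3) in the atrophy animals, 6.32 ± 1.61 CPM in the recovery animals and 15.04 ± 3.17 CPM in the repeated atrophy animals, and those of the recovery animals all lay below the other 6. When limbs were compared within an animal, the log2 difference was 0.78 to 1.69 in atrophy, 0.87 to 2.69 in repeated atrophy and -0.07 to 0.84 in recovery. Thus the left limb was higher in 6 of 6 animals with an active TTX block, in 2 of 3 in recovery, and also in 3 of 3 sham animals, there by 0.01 to 0.50. With the animal as a blocking factor, log2 FC was 1.26 ± 0.34 in atrophy, which no longer passed (adjusted p = 0.16), and 1.502 ± 0.34 in repeated atrophy, which passed (adjusted p = 0.011). In recovery vs. control it was -0.74 ± 0.54 without the block (adjusted p = 0.42) and 0.28 ± 0.34 with it (adjusted p = 0.69). The blocked difference of recovery vs. atrophy was -0.98 (adjusted p = 0.64) and that of repeated atrophy vs. recovery 1.22 (adjusted p = 0.21), so these 2 calls were lost. This block left 0 of the 14031 rows tested called in atrophy vs. control, where 3 of the 8 genes (Tnfrsf12a, Nfkb2 and Nfkbie) and 2678 of all rows (19.1%) had an unadjusted p under 0.05. It left 0 rows higher and 2 lower in recovery vs. atrophy, and 3 higher and 9 lower in repeated atrophy vs. recovery. Without the left limb of atrophy animal 2 alone, log2 FC vs. control was 2.48 (adjusted p = 0.0081) and recovery vs. atrophy -3.22. Without both limbs of atrophy animal 2, a setting chosen after the data were seen, Tnfrsf12a passed in atrophy with the block (log2 FC 1.504, adjusted p = 0.048) and without it (2.58, adjusted p = 0.0066). Single limbs carried weight: the call in atrophy was lost without the limb of animal 1 (adjusted p = 0.090) or animal 3 (0.098), when 4 and 0 rows of all were called, and that in repeated atrophy without animal 1 (log2 FC 1.01, 0.21) or animal 2 (0.064). The call of recovery vs. atrophy was lost without atrophy limb 3 (0.071), and that of repeated atrophy vs. recovery without repeated atrophy limb 1 (0.073) or recovery limb 1 (0.057).

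Tnfsf12, the TWEAK ligand gene (chromosome 10, 54403870 to 54413172, minus strand), was called in none of the comparisons, though 1 lay at the threshold. It had 13.3, 13.0 and 15.8 CPM in atrophy, 9.06, 7.65 and 11.9 CPM in recovery and 18.8, 12.41 and 14.3 CPM in repeated atrophy, with 8.78 to 17.2 CPM (median 12.5) in the control limbs. Its log2 FC vs. control was 0.13 ± 0.19 in atrophy (95% interval -0.25 to 0.52), -0.40 ± 0.19 in recovery (adjusted p = 0.19) and 0.22 ± 0.19 in repeated atrophy (interval -0.17 to 0.61). The recovery limbs all lay below the atrophy and the repeated atrophy limbs, and the difference of repeated atrophy vs. recovery, 0.62 ± 0.23, lay at the threshold (adjusted p = 0.0501) and passed without repeated atrophy limb 2 (0.047) or recovery limb 3 (0.030). It also passed with no filter on low rows (0.045), with rows of at least 10 CPM only (0.031), with the rows of a symbol summed (0.048) and without the intensity trend (0.034), and missed after rescaling (0.41) and with the animal as a block (also 0.41).

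**Figure D1:**
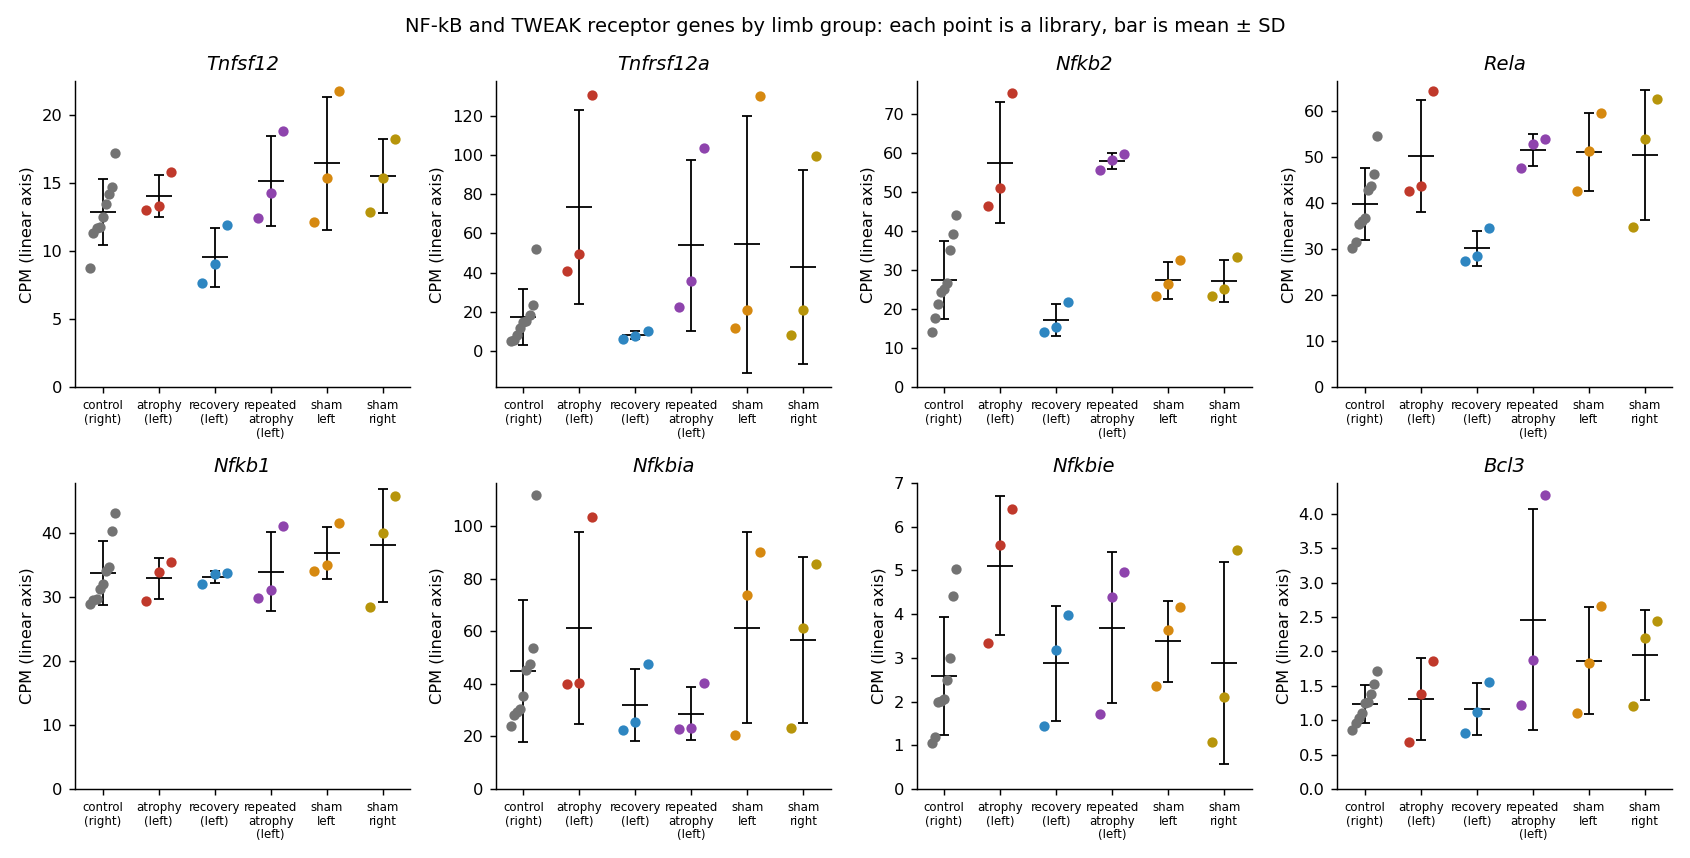
CPM of each of the 8 genes (linear vertical axes) in the 6 groups of limbs (horizontal axis); points are libraries, the horizontal dash is the mean and the bar is the SD. The Nfkb2 points of both atrophy groups lie above all control and sham points, whereas the highest Tnfrsf12a points include both limbs of 1 sham animal at 130 and 99.8 CPM.

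Of the NF-kB subunit genes, Nfkb2 (chromosome 1, 245166950 to 245173205, plus strand), which encodes the p100 precursor of the noncanonical arm, rose in atrophy and repeated atrophy. Its level was 51.1, 46.4 and 75.4 CPM in atrophy and 58.2, 59.9 and 55.8 CPM in repeated atrophy. The control limbs had 14.1 to 44.2 CPM (median 25.1), all below these 6 limbs. Log2 FC was 1.08 ± 0.27 (2.12-fold, adjusted p = 0.011) in atrophy and 1.13 ± 0.27 (2.18-fold, adjusted p = 0.0036) in repeated atrophy. In recovery the level was 15.5, 14.2 and 21.8 CPM, within the control range, and the fold change vs. control did not pass (log2 FC -0.59, adjusted p = 0.17). Nfkb2 fell by 1.68 on the log2 scale in recovery vs. atrophy (adjusted p = 0.0068) and rose by 1.72 in repeated atrophy vs. recovery (adjusted p = 0.0020).

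The 3 repeated atrophy limbs were alike in Nfkb2 although their own right limbs were not. The SD over the left limbs was 2.04 CPM, whereas the right limbs of the same animals had 17.8, 35.3 and 44.2 CPM, so the left-minus-right difference ran from 0.33 to 1.66 on the log2 scale. In atrophy the reverse held: the left limbs spread from 46.4 to 75.4 CPM, yet the left-minus-right differences were 0.90 to 0.99 in all 3 animals, animal 2 included. With the animal as a block, the rise was 0.91 ± 0.29 in repeated atrophy (adjusted p = 0.039) and 0.94 ± 0.29 in atrophy, which did not pass (adjusted p = 0.18). The blocked differences between recovery and the atrophy groups were -1.17 (vs. atrophy, adjusted p = 0.59) and 1.15 (repeated atrophy vs. recovery, adjusted p = 0.18), and both calls were lost. Without the limb of atrophy animal 1 or 3 the call in atrophy was lost too (adjusted p = 0.090 and 0.085), whereas no single limb ended the other 3 Nfkb2 calls. Without the limb of animal 2, log2 FC was 1.22 in atrophy (adjusted p = 0.0080) and -1.82 in recovery vs. atrophy.

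Rela (chromosome 1, 202925001 to 202935481, plus strand), which encodes the transactivating subunit of the canonical dimer, was called between recovery and both atrophy groups but not between either atrophy group and control. It had 43.6, 42.6 and 64.2 CPM in atrophy, 27.5, 28.5 and 34.5 CPM in recovery and 53.9, 47.5 and 52.9 CPM in repeated atrophy, with 30.2 to 54.6 CPM (median 36.6) in control limbs. Rela fell by 0.70 in recovery vs. atrophy (SE 0.21, adjusted p = 0.029) and rose by 0.75 ± 0.21 in repeated atrophy vs. recovery (adjusted p = 0.013). Both calls were lost when each limb was set against its partner (adjusted p = 0.64 and 0.21) and after the libraries were rescaled (0.20 and 0.12), and the first also without atrophy limb 3 (0.15) and either without recovery limb 1 (0.10 and 0.054) or limb 2 (0.098 and 0.051). Versus control, log2 FC was 0.33 ± 0.17 in atrophy (adjusted p = 0.17) and 0.39 ± 0.17 in repeated atrophy (adjusted p = 0.086), where it passed without the right limb of atrophy animal 3 (0.44, adjusted p = 0.030). The left limb was higher than the right in 6 of 6 animals of these groups, by 0.12 to 0.82, and in 1 of 3 sham animals. After rescaling, log2 FC vs. control was -0.03 in atrophy and 0.01 in repeated atrophy. Without atrophy limb 2 the values were 0.43 in atrophy (adjusted p = 0.11) and -0.80 in recovery vs. atrophy (adjusted p = 0.019).

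Nfkb1 (chromosome 2, 224016214 to 224131832, minus strand), the gene of the p105 precursor of p50, was the steadiest of the 8. Its levels were 34.0, 29.4 and 35.4 CPM in atrophy, 33.6, 32.0 and 33.7 CPM in recovery and 29.8, 31.0 and 41.0 CPM in repeated atrophy, all inside the control range of 28.9 to 43.1 CPM. The log2 FC vs. control was -0.03 in atrophy (95% interval -0.32 to 0.27), -0.01 in recovery (-0.31 to 0.28) and 0.01 in repeated atrophy (-0.28 to 0.30). This depended on the scale: on the deposited scale the median row was 0.22 higher than control in atrophy and 0.20 in repeated atrophy, and after rescaling of the libraries (trimmed mean of log ratios) Nfkb1 was lower in atrophy (-0.38, adjusted p = 0.033) and in repeated atrophy (-0.37, adjusted p = 0.018).

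**Figure D2:**
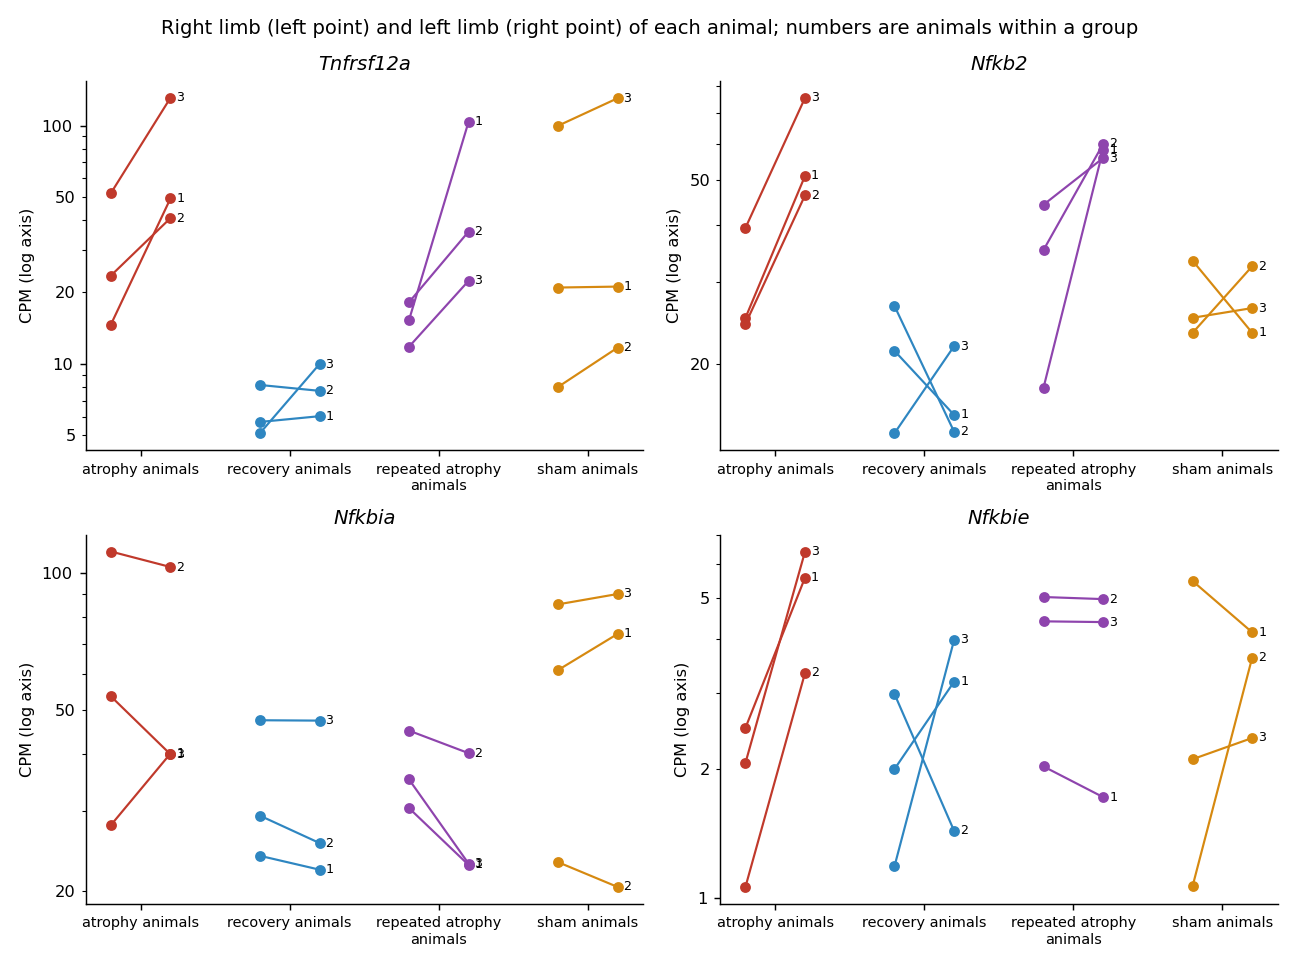
CPM (log axis) of Tnfrsf12a, Nfkb2, Nfkbia and Nfkbie in the right limb (left point of each line) and the left limb (right point) of each of the 12 animals, with the number of the animal within its group. Lines of Tnfrsf12a and Nfkb2 rise in all 6 animals with an active TTX block, Nfkbie rises in the 3 atrophy animals and not in the 3 repeated atrophy animals, and Nfkbia is high or low in both limbs of most animals together.

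Of the inhibitor genes, Nfkbia (chromosome 6, 72858713 to 72861942, minus strand), which encodes IkB-alpha, varied between animals far more than between the 2 limbs of an animal. Its lowest control limb had 23.9 CPM and its highest, the right limb of atrophy animal 2, had 112 CPM, and the left limb of that animal had 103 CPM against 40.2 and 40.0 CPM in atrophy animals 1 and 3. Both limbs were also high in sham animal 3 (90.1 and 85.5 CPM) and low in sham animal 2 (20.4 and 23.2 CPM). Recovery limbs had 22.3, 25.5 and 47.5 CPM and repeated atrophy limbs 22.9, 40.3 and 23.0 CPM. On the deposited scale the gene passed in none of the comparisons, with log2 FC vs. control of 0.44 ± 0.38 in atrophy (-0.01 without the limb of animal 2), -0.41 ± 0.38 in recovery and -0.52 ± 0.38 in repeated atrophy. Comparison of limbs within animals lowered the error from 0.38 to 0.18, and the blocked log2 FC was -0.01 ± 0.18 in atrophy, -0.10 ± 0.18 in recovery and -0.39 ± 0.18 in repeated atrophy (adjusted p = 0.15), where the left limb was the lower one in 3 of 3 animals by 0.16 to 0.59. With the block and rescaling together, a setting chosen after the data were seen, Nfkbia was called lower in repeated atrophy (-0.75, adjusted p = 0.0090), and with rescaling alone it was not (-0.89, adjusted p = 0.093). In that combined setting Nfkb2 no longer passed in repeated atrophy (0.54, adjusted p = 0.20).

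Nfkbie (chromosome 9, 15443601 to 15450438, minus strand), which encodes IkB-epsilon, was a low gene whose limbs in atrophy had 5.57, 3.34 and 6.41 CPM against 1.06 to 5.02 CPM (median 2.06) in control. The log2 FC of 0.82 ± 0.33 in atrophy did not pass (adjusted p = 0.079), and passed without the left limb of atrophy animal 2 (1.05, adjusted p = 0.045) or without the right limb of repeated atrophy animal 2 (0.92, adjusted p = 0.049). Within the atrophy animals the left limb was higher by 0.91 to 1.27 in 3 of 3. In repeated atrophy the levels were 1.72, 4.97 and 4.39 CPM, and each left limb lay just below its own right limb, by at most 0.15 on the log2 scale. Against all control limbs the log2 FC there was 0.40 ± 0.33 (adjusted p = 0.40), and with the animal as a block -0.06 ± 0.31. The difference of these within-animal differences, -1.15 ± 0.44, did not pass (adjusted p = 0.80). Without the block, repeated atrophy vs. atrophy was -0.43 ± 0.40, which did not pass either.

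Bcl3 (chromosome 1, 79471369 to 79485608, minus strand) was the lowest of the genes, at 0.858 to 1.72 CPM in the control limbs. It had 0.680, 1.38 and 1.85 CPM in atrophy, 1.11, 0.819 and 1.56 CPM in recovery and 4.27, 1.88 and 1.22 CPM in repeated atrophy. The log2 FC of repeated atrophy vs. control, 0.54 ± 0.21, lay just outside the threshold (adjusted p = 0.0556). The limb of animal 1 was the highest of all 24, and without it the log2 FC was 0.19 (adjusted p = 0.49). The difference passed without the left limb of animal 3 (0.81, adjusted p = 0.014) or without the right limb of animal 3 (0.58, adjusted p = 0.048).

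The counts of genes called were set against the background. In atrophy vs. control, 2 of the 8 genes (25%) were higher (Tnfrsf12a and Nfkb2) and 0 lower, where 20.3% of the 14031 rows tested were called higher and 2.33% lower. In repeated atrophy vs. control the same 2 of 8 (25%) were higher, against 28.1% of all rows higher and 6.24% lower. In recovery vs. control 0 of 8 passed, against 4.40% higher and 3.33% lower, and 3 of the 8 had an unadjusted p under 0.05, as had 3517 of all rows (25.1%). In recovery vs. atrophy 3 of 8 (37.5%) were lower (Tnfrsf12a, Nfkb2 and Rela), against 14.5% of all rows lower and 3.34% higher, and in repeated atrophy vs. recovery the same 3 (37.5%) were higher, against 21% higher and 6.29% lower. Repeated atrophy vs. atrophy called 0 of 8, and 0.0356% of all rows, and an unadjusted p under 0.05 was found for 0 of the 8 and for 884 of all rows (6.30%). The median log2 FC over the 8 genes was 0.38 in atrophy, -0.38 in recovery and 0.39 in repeated atrophy, next to 0.22, 0.02 and 0.20 over all rows tested. These comparisons share limbs: the same 9 control limbs entered 3 of them, and each treated group entered 3.

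Rescaling moved these counts, and the share of higher calls among all calls in the series fell from 89.7% to 48.8% in atrophy and from 81.8% to 52.1% in repeated atrophy. Among all calls of recovery vs. atrophy it rose from 18.7% to 51.3%, and among those of repeated atrophy vs. recovery it fell from 76.9% to 48.6%. In atrophy Tnfrsf12a stayed called (1.81, adjusted p = 0.037), Nfkb1 was called lower and Nfkb2 missed (log2 FC 0.73, adjusted p = 0.055). In repeated atrophy Nfkb2 stayed called (0.75, adjusted p = 0.024), Nfkb1 was called lower and Tnfrsf12a missed (1.26, adjusted p = 0.089). Of all 14031 rows, 663 were called higher and 695 lower in atrophy after rescaling, and 1844 and 1698 in repeated atrophy.

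**Figure D3:**
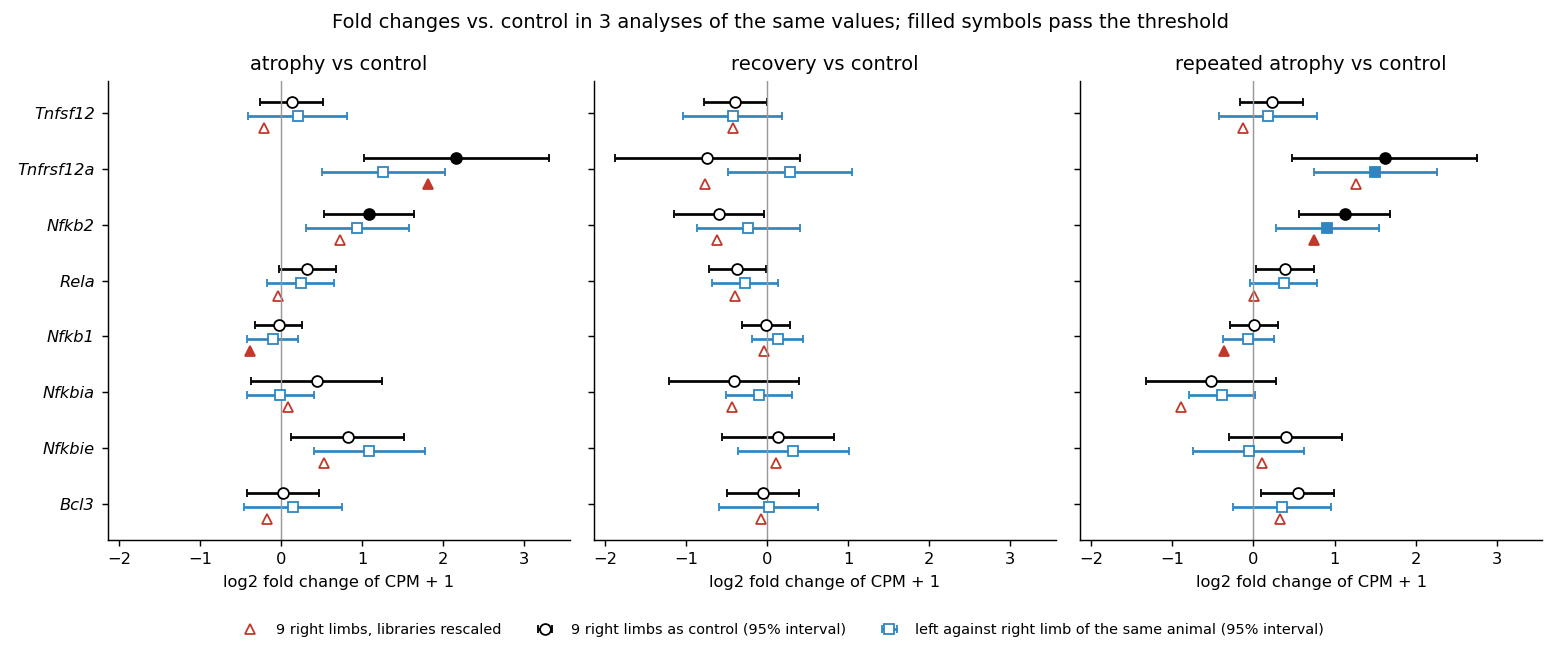
Log2 fold change of CPM + 1 vs. control (horizontal axis) for the 8 genes in atrophy, recovery and repeated atrophy, in 3 analyses: the 9 right limbs as control, left minus right within each animal, and the 9 right limbs after the libraries were rescaled. Bars are 95% intervals and filled symbols pass the threshold; Nfkb2 in repeated atrophy is filled in all 3 analyses, at 1.13, 0.91 and 0.75.

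The sham animals also varied in Tnfrsf12a. In sham left limbs Tnfrsf12a had 21.1, 11.7 and 130 CPM, and in the right limbs of the same animals 20.9, 7.99 and 99.8 CPM. Both limbs of sham animal 3, which had no TTX, thus lay among the highest TTX limbs. Nfkb2 in that animal was 26.4 and 25.2 CPM, well inside the control range, and the summed level of the 7 silenced-muscle genes was 446 and 456 CPM, just above the highest control. Trim63, the gene of the ubiquitin ligase MuRF1, was also high in this animal, at 4029 and 2957 CPM against 562 to 1414 CPM in repeated atrophy and 662 to 2389 CPM in atrophy. Both limbs of atrophy animal 3 were high in Trim63 as well, the untreated right limb with 1925 CPM. Sham left vs. control called 0 of 8 genes and 0.00% of the 13822 rows tested (log2 FC of Tnfrsf12a 1.19 ± 0.68, 95% interval -0.27 to 2.65), with an unadjusted p under 0.05 for 0 of the 8 and for 1904 of the rows. With 1 library left out at a time, this log2 FC of Tnfrsf12a ran from 0.20 to 1.88. Sham left vs. right called 0 of 8 and 0.00% of 13483 rows, again with 0 of the 8 under an unadjusted p of 0.05 and 576 of the rows. When the sham left limbs served as control, Tnfrsf12a was not called in atrophy (0.97, adjusted p = 0.66) or repeated atrophy (0.43, adjusted p = 0.79), whereas Nfkb2 was called in repeated atrophy and not in atrophy, where 0 of all rows were called. With sham animals 1 and 2 alone as control, chosen after the data were seen, Tnfrsf12a differed by 1.96 in atrophy (adjusted p = 0.20) and 1.42 in repeated atrophy (adjusted p = 0.17).

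Per kilobase of gene model, Tnfrsf12a took different places in the order of levels. In control limbs Nfkbia was highest, at 28.7 ± 17.2 CPM per kilobase (SD, n = 9), followed by Tnfrsf12a (17.8 ± 14.9), Rela (16.3 ± 3.19), Nfkb2 (8.99 ± 3.28), Nfkb1 (8.53 ± 1.26), Tnfsf12 (8.36 ± 1.57), Nfkbie (1.61 ± 0.84) and Bcl3 (0.69 ± 0.16). Neighbours down to Rela, and those from Nfkb2 to Tnfsf12, lay within their spread. In atrophy Tnfrsf12a came first, at 76.5 ± 51.5 CPM per kilobase (n = 3), ahead of Nfkbia (39.1 ± 23.3), Rela (20.5 ± 5.00) and Nfkb2 (18.8 ± 5.08), though the first 2 overlapped. In recovery it was 8.20 ± 2.06, below Rela at 12.35 ± 1.56. The right limbs differed too: those of the atrophy, recovery and repeated atrophy animals averaged 31.2, 6.56 and 15.6 CPM per kilobase for Tnfrsf12a, and 17.3, 15.1 and 16.4 for Rela. Ligand RNA was 9.14 ± 1.01 CPM per kilobase in atrophy and 6.20 ± 1.41 in recovery.

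Across the 24 libraries the genes whose level followed Tnfrsf12a most closely were not other members. Among 6543 rows with a mean of at least 10 CPM, the 4 highest correlations of log2 level were with Sdc4 (Pearson r = 0.96), a cell-surface syndecan, Trim63 (0.96), Zdhhc18 (0.96) and Maff (0.96), a small MAF transcription factor. For Nfkb2 the 5 highest were with Grina (0.95), Gnl1 (0.93), Plbd2 (0.92), Dusp13 (0.92) and Traf2 (0.92), the TRAF adaptor of the TNF receptor pathway. Between Tnfrsf12a and Nfkb2 themselves r was 0.65, and between Nfkb2 and Nfkbia 0.04. The closest pair of members was Tnfsf12 and Rela (0.82). These are descriptions over libraries that share animals, treatment groups and scaling.

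**Figure D4:**
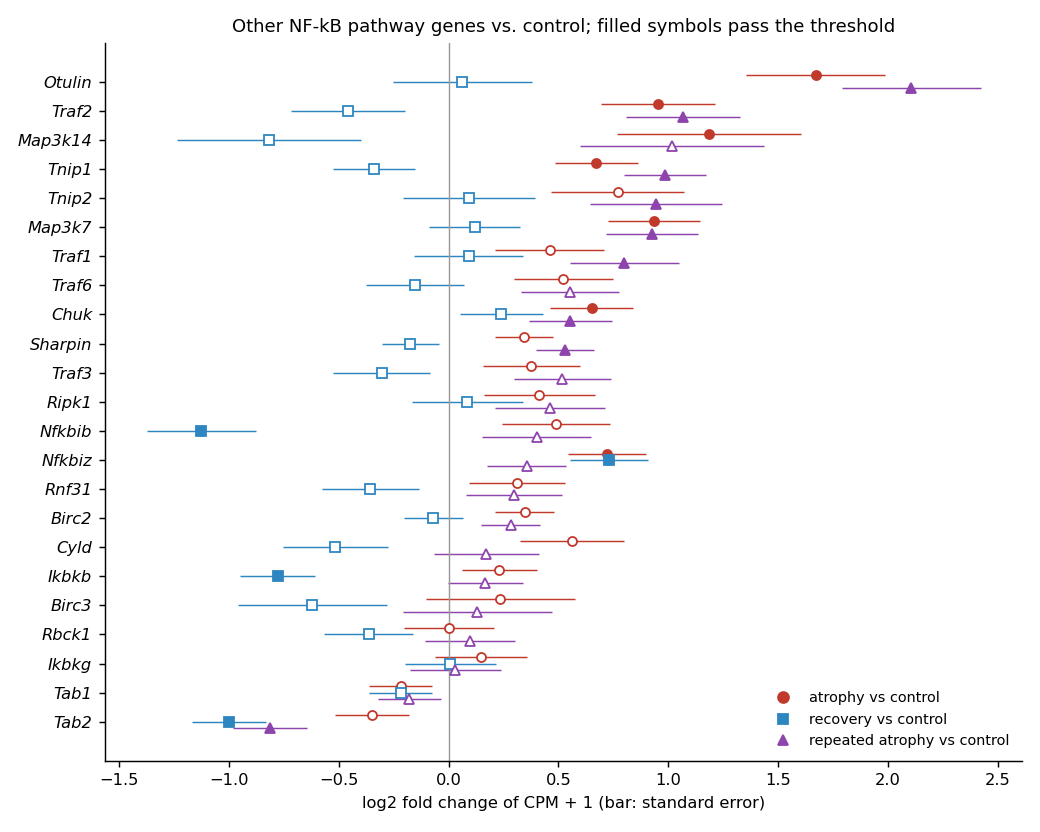
Log2 fold change of CPM + 1 vs. control (horizontal axis, bars are SE) of the 23 other NF-kB pathway genes that had a row, in atrophy (circles), recovery (squares) and repeated atrophy (triangles); filled symbols pass the threshold. Otulin lies farthest to the right in atrophy (1.67) and repeated atrophy (2.11), and Tab2 is lowest in repeated atrophy (-0.81).

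Other genes of the NF-kB pathway were taken from a list of 28, of which 23 had a row. In atrophy vs. control 7 (30.4%, against 20.3% of all rows) were higher and 0 lower: Otulin, a deubiquitinase of linear ubiquitin chains (43.0 to 143 CPM between the group means, log2 FC 1.67), Map3k14, the NIK kinase (1.19), Traf2 (0.95), Map3k7, the TAK1 kinase (0.93), Nfkbiz (0.72), Tnip1 (0.67) and Chuk, the IKK-alpha kinase (0.65). In repeated atrophy 8 (34.8%, against 28.1%) were higher and 1 (4.35%, against 6.24%) lower. Otulin was again first (2.11, 179 CPM), with Traf2 (1.07), Tnip1 (0.98), Tnip2 (0.94), Map3k7 (0.93), Traf1 (0.80), Chuk (0.55) and Sharpin (0.53), while Tab2, a TAK1-binding adaptor, was lower (-0.81). Map3k14 had 1.02 there and did not pass (adjusted p = 0.068). In recovery 1 (4.35%, against 4.40%) was higher (Nfkbiz, 0.73) and 3 (13.0%, against 3.33%) were lower, namely Nfkbib, which encodes IkB-beta (-1.13), Tab2 (-0.998) and Ikbkb, the IKK-beta kinase (-0.78). The median over the 23 was 0.46 in atrophy, -0.22 in recovery and 0.46 in repeated atrophy.

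The list was also compared between recovery and the atrophy groups. In recovery vs. atrophy 10 of 23 (43.5%) were lower and 0 higher, against 14.5% and 3.34% of all rows, led by Map3k14 (-2.004), Nfkbib (-1.62) and Otulin (-1.61), and in repeated atrophy vs. recovery 9 (39.1%) were higher and 0 lower, against 21% and 6.29%, led by Otulin (2.04), Map3k14 (1.84) and Nfkbib (1.53). Within animals 0 of 23 passed in atrophy, in recovery or in either comparison with recovery, and 5 were higher and 1 lower in repeated atrophy (Otulin, Traf2, Tnip1, Map3k7 and Sharpin higher, Tab2 lower). Of all 14031 rows, that block called 0 in atrophy, 6 higher and 3 lower in recovery, and 3012 higher and 794 lower in repeated atrophy. After rescaling, 2 were higher and 2 lower in atrophy (Otulin and Map3k7, Tab1 and Tab2) and 4 higher and 2 lower in repeated atrophy, against 663 higher and 695 lower of all rows in atrophy and 1844 and 1698 in repeated atrophy. Without the left limb of atrophy animal 2, the atrophy count was 11 higher and 1 lower, against 3911 and 504 of 14011 rows.

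Other receptors and ligands of the TNF family were examined likewise. Of 20 other receptors with a row, 2 (10%, against 20.3% of all rows) were higher in atrophy (Relt, 1.58, and Tnfrsf9, which encodes 4-1BB, 0.98), 2 (10%, against 4.40%) in recovery (Tnfrsf11b, the decoy receptor osteoprotegerin, 1.25, and Tnfrsf9, 0.76) and 3 (15%, against 28.1%) in repeated atrophy (Relt, 1.25, Tnfrsf9, 1.14, and Tnfrsf14, 0.71). Of the receptors named here Tnfrsf9, Tnfrsf10b, Tnfrsf11b, Tnfrsf14 and Edar were low, at 0.44, 0.31, 0.70, 0.35 and 0.49 CPM in control. In recovery vs. atrophy 2 receptors (10%, against 14.5%) were lower (Relt, -2.19, and Ltbr, the lymphotoxin-beta receptor, which also signals to NIK, -1.02) and 2 (10%, against 3.34%) higher (Tnfrsf11b, 1.27, and Tnfrsf21, 0.73). In repeated atrophy vs. recovery 3 (15%, against 21%) were higher (Relt, 1.86, Ltbr, 1.01, and Tnfrsf1a, a TNF receptor, 0.74) and 3 (15%, against 6.29%) lower (Tnfrsf11b, -1.10, Edar, the ectodysplasin receptor, -0.97, and Tnfrsf10b, -0.64). Of 12 other ligands 0 passed in atrophy (against 20.3% of all rows higher and 2.33% lower) or recovery (against 4.40% and 3.33%). In repeated atrophy Eda, ectodysplasin, was higher (0.63) and Ltb, lymphotoxin beta, lower (-0.87). Each was 8.33% of the 12, against 28.1% of all rows higher and 6.24% lower. After rescaling, the Relt calls vs. control, both Ltbr calls, and those of Tnfrsf1a and of Eda in repeated atrophy were lost, while Tnfrsf10b and Eda were called higher and Tnfrsf13b lower in recovery vs. control. Without the left limb of atrophy animal 2, Tnfrsf21 no longer passed in recovery vs. atrophy. Within animals only Relt and Tnfrsf9 of the receptors and Ltb of the ligands passed, all in repeated atrophy.

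Of 23 known NF-kB target genes with a row, 2 (8.70%, against 20.3% of all rows) were higher in atrophy (Trim63, 1.93, and the adhesion molecule Vcam1, 0.67) and 1 (4.35%, against 2.33%) lower (Sod2, mitochondrial superoxide dismutase, -0.53). In repeated atrophy 3 (13.0%, against 28.1%) were higher (Junb, 1.22, Vcam1, 0.67, and the plasminogen activator Plau, 0.67) and 1 (4.35%, against 6.24%) lower (Sod2, -0.65). In recovery Ccl2, a monocyte-attracting chemokine, and Vcam1 were higher (1.21 and 1.01), or 8.70% against 4.40%. In recovery vs. atrophy Trim63 was lower (4.35%, against 14.5% of all rows) and 0 were higher. In repeated atrophy vs. recovery Trim63 was higher (4.35%, against 21%) and Ccl2 and Sod2 were lower (8.70%, against 6.29%). The median log2 FC over the list was 0.14 in atrophy, 0.21 in recovery and 0.11 in repeated atrophy, next to 0.22, 0.02 and 0.20 over all rows. Within animals 0 passed in atrophy and recovery, whereas in repeated atrophy Trim63 and the chemokine gene Ccl5 were higher and Sod2 lower. After rescaling, Sod2 alone passed in atrophy and in repeated atrophy. Without the left limb of atrophy animal 2, Cxcl10 and Trim63 were higher in atrophy and Sod2 lower, and Vcam1 no longer passed.

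Markers of other cell types moved with some of the groups. The summed level of 12 macrophage markers was 81.9 to 283 CPM in control limbs, 127 to 400 in atrophy, 244 to 534 in recovery, 90.8 to 226 in repeated atrophy and 207 to 415 in sham left limbs. That of 7 fibroblast markers was 1240 to 2360 CPM in recovery against 213 to 628 in control, 240 to 657 in atrophy and 370 to 617 in repeated atrophy. For 8 endothelial markers it was 211 to 220 CPM in recovery against 222 to 312 in control and 245 to 273 in atrophy. It was 176 to 269 CPM in repeated atrophy and 264 to 575 CPM in sham left limbs. Of 6 satellite cell and myoblast markers, 4 were higher in atrophy (66.7%, against 20.3% of all rows), and 4 higher (66.7%, against 28.1%) and 1 lower (16.7%, against 6.24%) in repeated atrophy, and the list summed to 280 to 1187 and 798 to 1000 CPM there, against 79.0 to 237 CPM in control. The 4 in atrophy were Mymk, Myog, Myf5 and Myod1, and Myog is also among the silenced-muscle genes. Pax7 (log2 FC -0.24) and Cdh15 (0.22) were not called in atrophy. The sum of 10 myofibre markers was 172083 to 230468 CPM in control limbs. It ran from 89682 to 183402 CPM in atrophy, from 116355 to 146291 CPM in repeated atrophy and from 186570 to 204515 CPM in recovery. Few abundant genes set this sum. In atrophy 0 of the 10 were called higher and 1 lower (10%, against 2.33%), namely Actn3. Myh2 (log2 FC 0.99) and Mb (0.49) were higher without passing, and the rest were lower without passing. In repeated atrophy 1 was higher (10%, against 28.1%) and 1 lower (10%, against 6.24%). Of 7 lymphocyte markers tested, 3 were higher in recovery (42.9%, against 4.40%), where the list summed to 10.97 to 32.0 CPM against 4.42 to 17.3 in control. In these lists 0 markers were at 0 in all libraries. Their part in the levels of the members was not tested.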

How the data were processed

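Bulk RNA-seq of the TA of both limbs of 12 aged rats was analysed from the normalized table deposited by the authors. The authors removed contaminant reads with Bowtie2 2.2.5, aligned to rn7 with STAR and worked in Partek Flow; the counting step is not given in the sources used here. The study names a median of ratios normalization, which the column sums do not show: the deposited values are CPM by their sums (1000000 in each column). Whole reads were not recovered (87.1% to 88.7% of low values were whole within 0.02 reads), so no count test was run. Of 27 value columns, 3 matched no sample and were not used.

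After 28 duplicate rows were dropped, 14243 rows remained. Rows above 0 in at least 3 libraries were tested on log2(CPM + 1) with limma 3.58.1 (R 4.3.3, intensity trend), 1 fit over the 18 libraries of the TTX animals and separate fits for sham left vs. control and sham left vs. right, with Benjamini-Hochberg adjustment over all rows. The threshold was an adjusted p no higher than 0.05 together with a 1.2-fold change or more. Fold changes on this scale understate those of low genes. In simulated data for atrophy vs. control (13980 genes) 14.8%, 70.2% and 100% of changes of 1.5-, 2- and 4-fold were recovered. The simulation placed changes only in genes that were not low in control. It gave every gene the same dispersion and no difference between animals. Its rates therefore do not describe low genes such as Nfkbie and Bcl3, or genes as variable as Tnfrsf12a and Nfkbia. Both limbs came from 1 animal by the labels, which is the pairing used for the block. Deviations from group means correlated with r = 0.12 between limbs (mean of 9 TTX animals, 6 positive) and 0.74 in the 3 sham animals. In the TTX animals the right limbs were centred on all 9 control limbs and the left limbs on their own group. Both sham sides were centred on the same 3 animals, so these r values are not directly comparable.

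The members and gene lists were chosen with earlier results of these data known. All members are named, and examples from other lists are genes that passed a comparison, by rule those with the largest fold and at least 1 CPM in a group, with low genes named where a count was 5 or fewer (Traf2, Grina, Trim63 and other non-members also appear among the 5 genes most like Tnfrsf12a or Nfkb2, of which 1 is not reported here). Map3k14 in repeated atrophy and Tab1 after rescaling were named after their values were seen. Alternatives for the members covered pseudocounts, scaling, filters, blocks, other control limbs and each library left out. The NF-kB pathway, target, receptor and ligand lists were recomputed only after rescaling, with the animal as a fixed block and without the left limb of atrophy animal 2.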

Additional observations from a re-analysis of the deposited data

Results flagged for a closer look

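In the 9 control limbs, 2 of the 8 genes had a library far from the others by Dixon's criterion at the 95% level on linear CPM (critical value 0.493 for 9 samples; chance gives about 1 in 20 groups, and 8 were examined). Tnfrsf12a was 52.0 CPM in the right limb of atrophy animal 3, and its gap to the next control was 0.609 of the range. Nfkbia was 112 CPM in the right limb of atrophy animal 2, with a gap of 0.661 of the range, and the left limb of that animal was also high. On the log2(CPM + 1) scale of the tests these gaps were 0.358 and 0.480 of the range, both below the critical value. None of the 8 genes passed the test of the difference between repeated atrophy and atrophy.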

How the results depend on the processing

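Counts of members called are out of 8. In atrophy vs. control (2 called) the count was 0 with the animal as a fixed replicate block, with and without rescaling, 1 (Tnfrsf12a) with the block and both limbs of atrophy animal 2 left out, and 0 with the sham left limbs as control, whether 3 or animals 1 and 2 only. Leaving out 1 library at a time gave 0 to 3 (0 without atrophy limb 1 or 3). In repeated atrophy vs. control (2 called) it was 1 (Nfkb2) with either set of sham left limbs or the right limbs of all 12 animals as control, and 1 to 3 with 1 library left out (1 without repeated atrophy limb 1 or 2). The share of all rows called in these settings is not given here, so the lower counts are not a result about the members. In recovery vs. atrophy and in repeated atrophy vs. recovery (3 called each) every fixed block gave 0, and leaving out 1 library gave 1 to 3 and 1 to 4, with 1 (Nfkb2) without atrophy limb 3 and without recovery limb 1. Nfkb1 changed from uncalled to called lower in repeated atrophy vs. control after rescaling by a trimmed mean (-0.37) or the median of ratios (-0.37), and with the block and rescaling together (-0.43), where Nfkbia was called lower too (-0.75) and Nfkb2 was not called (0.54). The random-effect block changed none of these counts. Of 168 counts recomputed, 148 stayed within 1.5 times the reported one. Of 1330 single-gene values, 53 were no longer called, 15 were newly called in the same direction, and 117 that were not called in either fit changed sign. The 4 settings below were chosen after the data were seen: the block with rescaling, the 2 without atrophy animal 2, and the one with sham animals 1 and 2. With 3 limbs a group, changes under 2-fold were often not detected in the simulation (14.8% of simulated 1.5-fold changes were recovered). The rate for the low or more variable members was not measured.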

Other observations

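Sham animal 3, taken at the time of repeated atrophy, was high in both limbs for Tnfrsf12a and for genes among those most like it, which were chosen for following Tnfrsf12a over libraries that include both limbs of this animal, so that this is a description. Besides Trim63, Sdc4 was 221 and 185 CPM in its left and right limbs, against a mean of 38.4 CPM in control and 97.3 CPM in repeated atrophy, and Maff was 85.1 and 61.8 CPM, against 8.59 and 31.1 CPM. Of the genes most like Nfkb2, Grina was 187 and 164 CPM, against 175 CPM in control and 450 CPM in repeated atrophy, and Traf2 was 31.7 and 29.8 CPM, against 31.6 and 66.1 CPM.

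Within repeated atrophy, Tnfrsf12a and the summed silenced-muscle genes ranked the 3 left limbs in opposite orders. Tnfrsf12a was 104, 35.9 and 22.3 CPM in animals 1, 2 and 3, whereas the 7 silenced-muscle genes summed to 2189, 3555 and 4227 CPM. Of those 7, Myog followed the order of Tnfrsf12a (637, 526.3 and 420 CPM) and Runx1 had 107, 58.9 and 94.1 CPM. Bcl3 followed the first order (4.27, 1.88 and 1.22 CPM), and Nfkb2 was level (58.2, 59.9 and 55.8 CPM). With 3 animals no test was run.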
